A study of Mus musculus with 4 samples.

Results

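Levels of 9 genes of the nitric oxide and cGMP pathway were measured by single-cell RNA-seq in fibrotic mouse lung. The genes were chosen by name and not by a measured value, though with earlier results of these data known. All 9 were found among the 32286 genes of the files. They encode the endothelial nitric oxide synthase (*Nos3*), 3 subunits of the soluble guanylate cyclase (*Gucy1a1*, *Gucy1a2* and *Gucy1b1*), 2 receptors of natriuretic peptides (*Npr1* and *Npr3*), a cGMP-dependent protein kinase (*Prkg1*) and 2 phosphodiesterases (*Pde5a* and *Pde3a*).

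Nitric oxide made in the endothelium diffuses to neighbouring cells and binds the heme of the soluble guanylate cyclase, a dimer of an alpha and a beta subunit, which then makes cGMP. Natriuretic peptides reach the same second messenger through *Npr1*, a receptor with a guanylate cyclase of its own, while *Npr3* mainly clears these peptides. cGMP activates the kinase encoded by *Prkg1*, which relaxes smooth muscle, and phosphodiesterases end the signal. In the lung the pathway is known for keeping the tone of the pulmonary arteries low, and inhibitors of the *Pde5a* product are given in pulmonary hypertension.

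The lungs came from 2 WT mice and 2 *Tubb3*-/- mice, all 14 days after bleomycin at 0.8 U per kg, at an age of 8 to 11 weeks. *Tubb3*-/- mice came from crosses of heterozygotes and were homozygous for a Cre knock-in that leaves *Tubb3*, the gene of β-III tubulin, without its product, and no lung without bleomycin was analysed here. Both genotypes held 1 male and 1 female mouse by their *Xist* and Y-linked counts. Each lung gave whole cells depleted of erythrocytes and a mural cell-enriched sample, and the 4 mice of each kind were tagged and sequenced as 1 pool. For the enriched sample, TER-119, CD31, CD45 and EpCAM were used for removal of other cells, and sorted mural cells (MCAM+ PDGFRα-) were then mixed in equal parts with sorted MCAM- cells, so that the sort set the makeup of this pool.

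Cells were assigned to a lineage by 1 gate gene each, namely *Higd1b* for pericytes, *Myh11* with at least 3 UMIs (unique molecular identifiers) for smooth muscle, *Pdgfra* for fibroblasts, *Cdh5* for endothelial cells, *Epcam* for epithelial cells and *Ptprc* for immune cells. Of 30018 cells kept, 20989 met a single gate, 7282 met several and were dropped, and 1747 met none. The pericyte gate was small, with 35 and 63 cells in WT and 39 and 33 cells in *Tubb3*-/- mice, and 144 of its 170 cells came from the mural cell-enriched pool. Gene UMIs per mouse ranged from 255452 to 439072 in pericytes and from 28886417 to 50268267 in fibroblasts. All markers fixed for smooth muscle, endothelial, epithelial and immune cells were highest in their own gate, as were 5 of 6 pericyte markers (*Gm13889* was highest in smooth muscle) and 4 of 5 fibroblast markers (*Pdpn* was highest in epithelial cells). The gates are 1-gene rules, and of 983 cells with a *Higd1b* UMI the pericyte gate held 170. A further 412 also met the *Myh11* gate and no other, and the rest met other gates. Cells that met several gates had median depths of 14780 to 18694 UMIs by mouse, against 6357 to 7408 UMIs in pericytes.

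*Tubb3* checked the labels of the mice. In smooth muscle it had 9.83 and 8.88 CPM (UMIs of the gene per 1000000 gene UMIs of the lineage) in WT mice against 0.815 and 0.743 CPM in *Tubb3*-/- mice (log2 fold change -3.59, edgeR adjusted p = 0.00424). In pericytes it had 15.7 and 2.28 CPM in WT mice against 3.01 and 0 CPM in *Tubb3*-/- mice, where a count of 0 allows up to 11.4 CPM, so that the genotypes overlapped there at this depth. Pericytes of 1 *Tubb3*-/- mouse held 10889.8 CPM of haemoglobin genes, against 8 to 16 CPM in the other 3 mice, and the tests were repeated without these genes. Values are given in the order WT replicate 1, WT replicate 2, *Tubb3*-/- replicate 1 and *Tubb3*-/- replicate 2. With 2 mice per genotype an exact two-sided permutation test of a single value cannot go below p = 0.333, so tests were made with edgeR's quasi-likelihood fit over all genes of a lineage, with Benjamini-Hochberg adjustment.

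Promoters are shown for both subunits of the main cyclase and for the kinase, whose levels by lineage are described next. *Gucy1a1* (chr3:82092427-82145789 of GRCm38, minus strand) and *Gucy1b1* (chr3:82032006-82074689, minus strand) are neighbours with 17.7 kb between them, and *Prkg1* is a gene of 1200 kb at chr19:30564489-31765033, minus strand. The bases before the start of each, from the RefSeq promoters of GRCm38.p6, are printed 5′ to 3′ on the strand of the gene. Capitals mark GGGCGG or CCAAT, read on both strands (CCGCCC and ATTGG).
*Gucy1a1*, chr3:82145790-82145900: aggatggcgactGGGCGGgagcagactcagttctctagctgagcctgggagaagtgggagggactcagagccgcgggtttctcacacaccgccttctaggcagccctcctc
*Gucy1b1*, chr3:82074712-82074961: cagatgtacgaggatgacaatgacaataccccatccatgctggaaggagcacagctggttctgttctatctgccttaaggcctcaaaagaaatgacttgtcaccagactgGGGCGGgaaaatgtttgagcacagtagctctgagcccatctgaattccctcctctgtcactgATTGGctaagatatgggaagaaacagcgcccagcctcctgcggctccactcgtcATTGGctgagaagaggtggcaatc
*Prkg1*, chr19:31765034-31765283: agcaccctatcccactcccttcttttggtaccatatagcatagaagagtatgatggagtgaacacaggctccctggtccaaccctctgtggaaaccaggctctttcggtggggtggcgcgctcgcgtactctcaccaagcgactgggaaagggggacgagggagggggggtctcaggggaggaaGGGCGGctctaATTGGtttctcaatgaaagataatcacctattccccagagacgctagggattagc

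RefSeq promoters, from 250 bases before to 50 bases after a start, were held for 7 of the 9 genes, as 9 windows. GGGCGG, the core of a GC box, was found in 7 of these 9 windows, and in 35.7% of all 32851 promoters. CCAAT was found in 5 of the 9 windows and in 37.4% of all promoters. The CArG box, the motif read by serum response factor in smooth muscle genes, was found in 0 of the 9 windows and in 1.63% of all promoters. A match is only a match of letters in these windows.

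The lineages were compared first. Of the 9 genes, 7 differed between pericytes and smooth muscle at an adjusted p under 0.05, where 27.3% of all genes tested did, and 6 differed between pericytes and fibroblasts, where 28.0% did. Between smooth muscle and fibroblasts 8 of 9 differed, against 49.4% of all genes. Endothelial cells differed from pericytes in 8 of 9 (33.9% of all genes), from smooth muscle in 8 of 9 (64.8%) and from fibroblasts in all 9 (65.2%). Pericytes were higher than smooth muscle for 6 of the 7 genes called and higher than fibroblasts for all 6, whereas endothelial cells were higher than pericytes for 3 of 8. These fits held the mouse as a block, and the log2 difference of the median gene was -0.28 between pericytes and smooth muscle, -0.34 between pericytes and fibroblasts and 0.24 between endothelial cells and pericytes, against which the values for pericytes can be read. Log2 differences come from sums scaled by edgeR (TMM), whereas CPM and ratios within a mouse are not scaled in this way. A log2 difference therefore need not match the ratios given beside it.

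**Figure D1:**
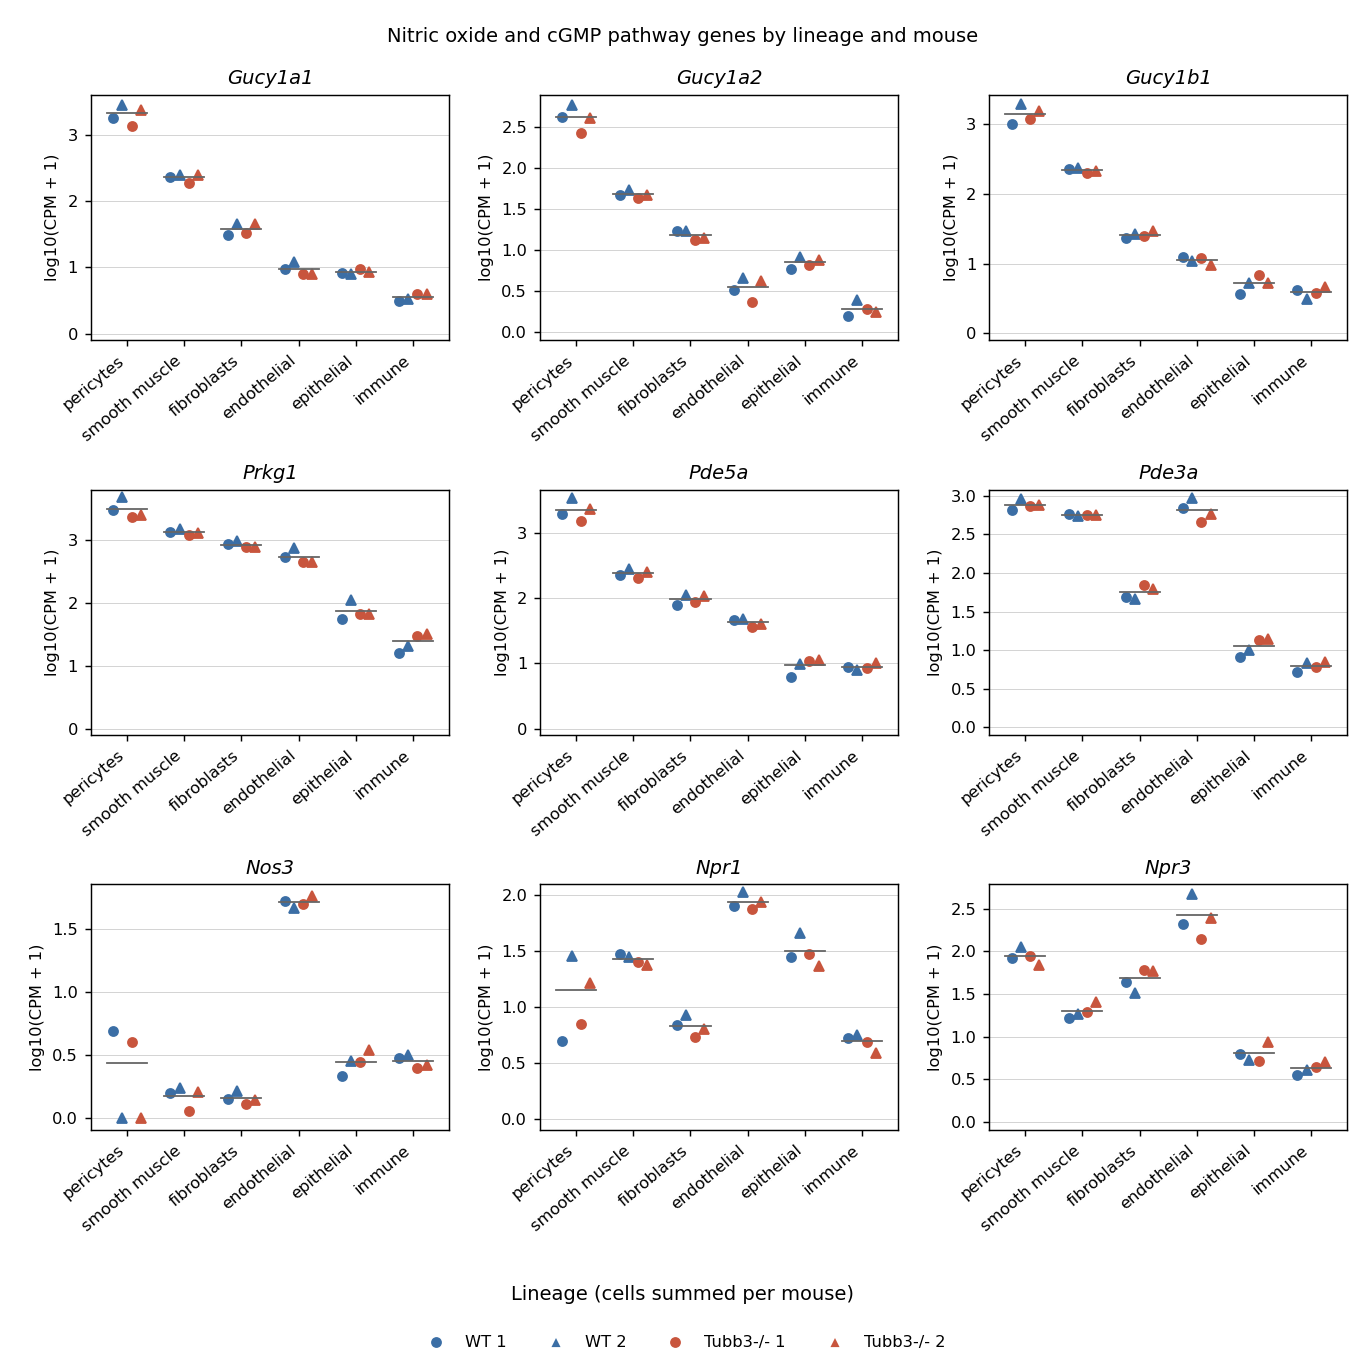
Level of each gene as log10(CPM + 1) in 6 lineages, with 1 point per mouse and colour for the genotype. *Gucy1a1*, *Gucy1a2*, *Gucy1b1*, *Prkg1* and *Pde5a* were highest in pericytes of all 4 mice, *Nos3*, *Npr1* and *Npr3* were highest in endothelial cells, and *Pde3a* of endothelial cells overlapped with that of pericytes and of smooth muscle.

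*Nos3*, which makes nitric oxide in the endothelium, was an endothelial gene in these data (chr5:24364810-24384474). Endothelial cells had 52.0, 45.7, 49.6 and 57.9 CPM. In pericytes it had 1 UMI in 1 mouse of each genotype (3.91 and 3.01 CPM) and 0 in the other mouse of each, where a count of 0 allows up to 6.83 CPM in the WT mouse and 11.4 CPM in the *Tubb3*-/- mouse. No other lineage passed 2.44 CPM in any mouse, so that endothelial cells were above all other gates in all 4 mice. The log2 difference from fibroblasts was 6.69 (SE 0.22, edgeR adjusted p = 4.56e-17). When all cells were thinned to 2000 UMIs, 9.53% of endothelial cells held a *Nos3* UMI (26.3% unthinned).

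Within the endothelium, *Nos3* differed between vessel types that were gated by a second gene. General capillary cells (*Gpihbp1*) had 43.7, 42.0, 50.4 and 52.3 CPM, and aerocytes (*Ednrb*), the large capillary cells of gas exchange, had 2.98, 7.67, 10.9 and 10.3 CPM. Arterial cells (*Gja5*) had 228, 99.4, 130 and 96.6 CPM, and venous cells (*Slc6a2*) had 101, 102, 132 and 209 CPM. Aerocytes were thus below general capillary cells, and arterial and venous cells above them, in each of the 4 mice. The arterial and venous gates rested on 58 and 72 cells in all.

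The alpha 1 and beta 1 subunits of the cyclase were pericyte genes. *Gucy1a1* had 1820, 2886, 1372 and 2382 CPM in pericytes and 234, 251, 189 and 244 CPM in smooth muscle. Within a mouse, pericytes were 7.27 to 11.5 times smooth muscle and 43.2 to 65.7 times fibroblasts, which had 30.3, 43.9, 31.8 and 44.1 CPM. The log2 difference between pericytes and smooth muscle was 2.75 (SE 0.14, edgeR adjusted p = 1.06e-12). Fibroblasts were in turn above endothelial cells (6.98 to 11.2 CPM), which overlapped with epithelial cells (6.90 to 8.39 CPM), and immune cells were lowest (2.08 to 2.98 CPM). At 2000 UMIs per cell, 83.1% of pericytes held a *Gucy1a1* UMI (SD 13.0, n = 4 mice), against 37.2% of smooth muscle cells and 0.564% of immune cells, and the unthinned shares were 92.9%, 79.4% and 2.16%. Median depths were 6357 to 7408 UMIs in pericytes and 9730 to 11993 UMIs in smooth muscle.

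*Gucy1b1*, the beta subunit that the cyclase needs to bind heme, had 1006, 1925, 1170 and 1569 CPM in pericytes. Smooth muscle had 226, 236, 199 and 214 CPM, and fibroblasts had 22.0, 25.3, 23.8 and 28.5 CPM. The order of pericytes, smooth muscle, fibroblasts and endothelial cells (8.57 to 11.4 CPM) held in every mouse without overlap, while epithelial (2.63 to 5.95 CPM) and immune cells (2.15 to 3.65 CPM) overlapped. Within the endothelium, aerocytes had 41.7, 30.7, 23.7 and 25.8 CPM, from 10 to 14 UMIs per mouse, and overlapped with fibroblasts. General capillary cells had 5.39 to 8.85 CPM. The log2 difference between pericytes and smooth muscle was 2.26 (SE 0.15, edgeR adjusted p = 1.40e-10).

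*Gucy1a2*, the other alpha subunit (chr9:3532778-3894736), had the same order. It had 419, 588, 271 and 414 CPM in pericytes, 46.6, 53.7, 41.8 and 45.6 CPM in smooth muscle and 16.0, 16.1, 12.4 and 13.3 CPM in fibroblasts. Its log2 difference between pericytes and smooth muscle was 2.72 (SE 0.14, edgeR adjusted p = 1.06e-12). Endothelial cells (1.34 to 3.59 CPM) overlapped with immune cells and lay below epithelial cells (4.89 to 7.27 CPM).

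The natriuretic peptide receptors were divided between the lineages in another way. *Npr1* (chr3:90450591-90465866) had 78.4, 104, 74.3 and 84.8 CPM in endothelial cells, above every other lineage in all 4 mice. A gate on *Mylk4* within smooth muscle reached the endothelial range, as given below. Epithelial cells (22.0 to 45.0 CPM), smooth muscle (22.8 to 28.5 CPM) and pericytes (3.91 to 27.3 CPM) overlapped, and fibroblasts had 4.38 to 7.55 CPM. The log2 difference between endothelial cells and fibroblasts was 3.63 (SE 0.15, edgeR adjusted p = 2.52e-15). Pericytes were below smooth muscle by the same test (log2 difference -1.30, SE 0.33, adjusted p = 0.00474), a call that was lost in either pool alone (adjusted p = 0.065 and 0.07). The pericyte level rested on 1, 12, 2 and 4 UMIs, all from the mural cell-enriched pool. In WT replicate 2 pericytes were not below smooth muscle (27.3 against 27.1 CPM).

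*Npr3* (chr15:11839896-11907287), the clearance receptor, had 209, 479, 139 and 248 CPM in endothelial cells. Pericytes had 82.2, 112, 87.2 and 68.4 CPM, fibroblasts 42.9, 31.7, 60.1 and 58.5 CPM and smooth muscle 15.6, 17.3, 18.2 and 24.1 CPM. These 4 ranges did not overlap, although endothelial cells spread by more than 3-fold between mice. The endothelial gates differed, with 285, 644, 175 and 319 CPM in general capillary cells and 107 to 213 CPM in venous cells. Arterial cells had 14.5 to 104 CPM. Aerocytes had 32.8, 7.67, 10.9 and 54.3 CPM, from 41 UMIs in all, below pericytes and fibroblasts of the same mouse. Endothelial cells were above pericytes by a log2 difference of 1.75 (SE 0.33, edgeR adjusted p = 0.000223), and in the whole-cell pool alone this was 1.06 with an adjusted p of 0.175. Pericytes were above smooth muscle (log2 difference 1.81, SE 0.38, adjusted p = 0.000801), and against fibroblasts the test was not passed (0.38, SE 0.36, adjusted p = 0.501).

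*Prkg1*, the kinase that cGMP activates, was graded over all lineages. It had 3038, 4776, 2295 and 2545 CPM in pericytes and 1337, 1498, 1200 and 1302 CPM in smooth muscle. Fibroblasts had 858, 966, 780 and 778 CPM, and endothelial cells had 529, 734, 443 and 440 CPM. Epithelial cells (54.5 to 110 CPM) and immune cells (15.3 to 31.3 CPM) were far lower, and no neighbours in this order overlapped. The step from smooth muscle to pericytes was smaller than for the cyclase genes, at 1.91 to 3.19 times in unscaled CPM within a mouse. The scaled log2 difference was 0.78 (SE 0.20, edgeR adjusted p = 0.00448). At 2000 UMIs per cell, 91.9% of pericytes, 77.6% of smooth muscle cells, 66.3% of fibroblasts and 39.7% of endothelial cells held a *Prkg1* UMI, against 2.83% of immune cells.

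*Pde5a* (chr3:122728947-122859374), which hydrolyses cGMP, had the pattern of the cyclase. Pericytes had 1926, 3389, 1507 and 2306 CPM, and smooth muscle had 228, 277, 205 and 251 CPM, a ratio of 7.35 to 12.2 within a mouse. Fibroblasts (77.9 to 113 CPM) and endothelial cells (34.9 to 47.6 CPM) followed without overlap. The log2 difference between pericytes and smooth muscle was 2.79 (SE 0.15, edgeR adjusted p = 2.05e-12).

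*Pde3a* (chr6:141249269-141507448) encodes a phosphodiesterase of cAMP that cGMP inhibits, and its pattern differed from that of *Pde5a*. Pericytes had 650, 922, 740 and 771 CPM, smooth muscle 577, 543, 563 and 562 CPM and endothelial cells 690, 930, 458 and 575 CPM. In unscaled CPM, pericytes were 1.13 to 1.70 times smooth muscle within a mouse, without overlap. Endothelial cells overlapped with both and were above pericytes in 2 of the 4 mice. Log2 differences of pericytes from smooth muscle (0.02, SE 0.18, edgeR adjusted p = 0.952) and of endothelial cells from pericytes (-0.03, SE 0.18, adjusted p = 0.933) did not pass the test. All 3 lineages were above fibroblasts, which had 48.5, 44.9, 69.2 and 61.2 CPM, and the log2 difference of endothelial cells from fibroblasts was 3.27 (SE 0.18, adjusted p = 5.94e-13).

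The pericyte values depended on which *Higd1b* cells were counted. When cells that also met the *Myh11* gate were counted as pericytes, a choice made after the data were seen, *Gucy1a1* had 1143, 2424, 992 and 1654 CPM and *Pde5a* 1163, 2726, 1066 and 1696 CPM. These levels were lower than in the narrow gate in each mouse and still above smooth muscle, with log2 differences of 2.43 (SE 0.15) for *Gucy1a1* and 2.46 (SE 0.16) for *Pde5a*. *Pde3a* had 813, 1007, 836 and 936 CPM in this wider gate, and its log2 difference from smooth muscle of 0.40 (SE 0.17) did not pass the edgeR test at an adjusted p of 0.0727. Markers of fibroblasts summed to 1844 to 4461 CPM, those of smooth muscle to 1426 to 3047 CPM and those of endothelial cells to 87.2 to 130 CPM in the narrow pericyte gate. Their part in these levels was not tested.

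The genes most alike to each of the 9 were named by the Pearson correlation of log2(CPM + 1) over the 24 sums of 6 lineages and 4 mice. These points share mice and pools, so the values are a description. The cyclase subunits were each other's nearest genes, with r = 0.991 between *Gucy1a1* and *Gucy1b1* and 0.985 between *Gucy1a1* and *Gucy1a2*, and *Dubr* followed for *Gucy1a1* (0.979). *Pde5a* was nearest to *Gucy1b1* (0.978), *Hoxb3os* (0.975) and *Gucy1a1* (0.970), and *Prkg1* to *Zbtb20* (0.979), *Nfatc4* (0.975) and *Gm15261* (0.975). *Gucy1b1* was also near *Postn* (0.983) and *Hoxb3os* (0.980), and *Gucy1a2* near *Klhl23* (0.975) and *Dubr* (0.973). *Pde3a* was nearest to *Rgs6* (0.982), *Cabp1* (0.977) and *St3gal2* (0.976). Among the endothelial genes, *Nos3* was nearest to *Myct1* (0.968), *Emcn* (0.965) and *Acer2* (0.962), *Npr1* to *Cav1* (0.941), *Fzd6* (0.934) and *Txnip* (0.927), and *Npr3* to *Lrrc58* (0.963), *Nsg1* (0.961) and *Gm4951* (0.959).

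*Tubb3*-/- mice were then compared with WT mice within each lineage. Calls with the replicate number, which coincided with sex, as a block differed and are given in the closing section. With genotype as the only term, none of the 9 genes passed the edgeR test in any lineage. In pericytes 0 of 7 genes tested were called (*Nos3* and *Npr1* fell under the filter on low counts), where 0.0% of all genes were. In smooth muscle it was 0 of 8, without *Nos3* (0.937% of all genes), in fibroblasts 0 of 9 (0.0%), in endothelial cells 0 of 9 (0.229%), in epithelial cells 0 of 8 (0.0%) and in immune cells 0 of 9 (0.0%). At an unadjusted p under 0.05 there were 1, 2, 4, 3, 0 and 1 of the genes in these lineages, where 5.94%, 13.8%, 19.6%, 15%, 6.3% and 8.62% of all genes were. DESeq2 called *Pde3a* in endothelial cells (adjusted p = 0.0162), *Npr3* in fibroblasts (adjusted p = 0.0383) and *Prkg1* in immune cells (adjusted p = 0.0412), and 0 in the other 3 lineages. Of all genes with an adjusted p, DESeq2 called 1.66% in endothelial cells, 5.19% in fibroblasts and 0.888% in immune cells, and 0.0182%, 1.87% and 0.149% in pericytes, smooth muscle and epithelial cells.

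**Figure D2:**
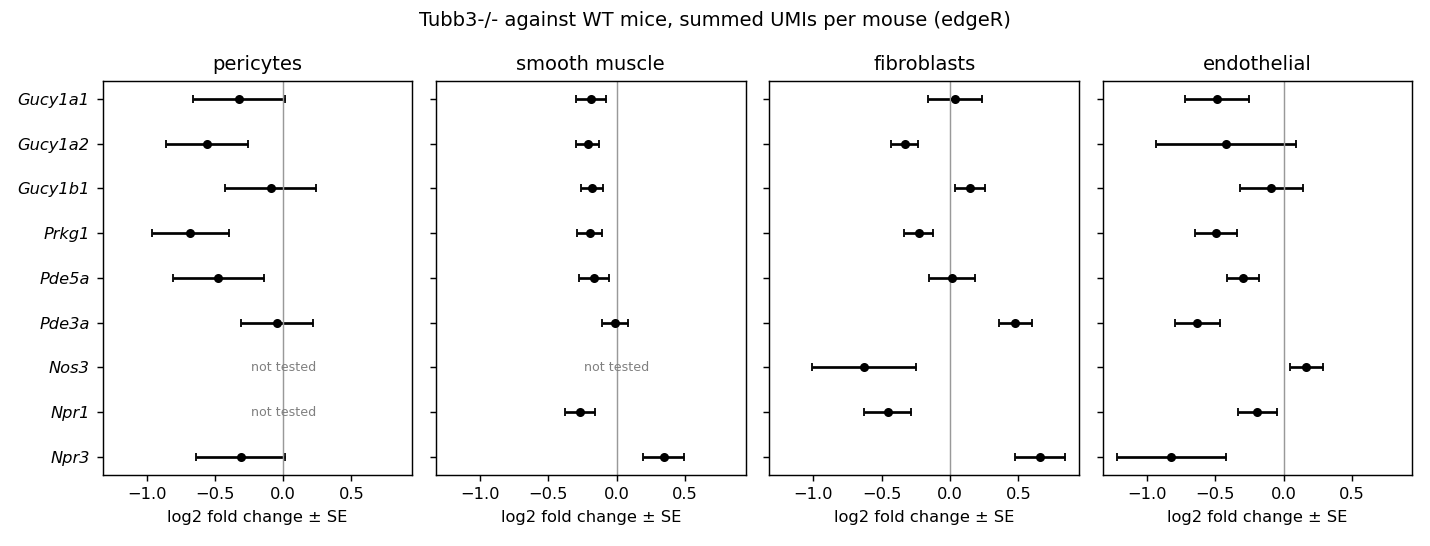
Log2 fold change of *Tubb3*-/- against WT mice for each gene tested in pericytes, smooth muscle, fibroblasts and endothelial cells, with bars of 1 SE from the edgeR fit. *Prkg1* lay below 0 in all 4 lineages, and *Pde3a* and *Npr3* lay below 0 in endothelial cells and above it in fibroblasts.

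The number of genes whose 2 *Tubb3*-/- mice lay on one side of both WT mice was read against that of all genes. In pericytes 2 of 7 did, where 36.5% of all genes did. In smooth muscle 5 of 8 did (43.1% of all genes), in fibroblasts 6 of 9 (49.4%) and in endothelial cells 4 of 9 (46.4%). In epithelial cells 3 of 8 did (38.9%), and in immune cells 5 of 9 (40.3%). The median log2 fold change of the genes tested was -0.32 in pericytes, -0.18 in smooth muscle, 0.01 in fibroblasts, -0.42 in endothelial cells, 0.17 in epithelial cells and 0.19 in immune cells, while that of all genes was near 0 in each lineage.

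In pericytes, the values per mouse given above overlapped between the genotypes for 5 of the 7 genes tested. *Gucy1a2* (419 and 588 against 271 and 414 CPM) and *Prkg1* (3038 and 4776 against 2295 and 2545 CPM) were lower in both *Tubb3*-/- mice. Log2 fold changes were -0.56 (SE 0.30, edgeR adjusted p = 0.790) for *Gucy1a2* and -0.68 (SE 0.28, adjusted p = 0.790) for *Prkg1*. *Gucy1a1* (-0.32, SE 0.33), *Gucy1b1* (-0.09, SE 0.33), *Pde5a* (-0.47, SE 0.33), *Pde3a* (-0.05, SE 0.26) and *Npr3* (-0.31, SE 0.33) did not pass the test, at adjusted p of 0.838 or more. WT replicate 2 was the highest mouse for all 7 of these genes, and without it *Gucy1a1*, *Gucy1b1* and *Pde3a* changed sign (0.05, 0.45 and 0.23). With a mouse left out, *Gucy1a2* ranged from -0.85 to -0.29, *Pde5a* from -0.83 to -0.0089 and *Prkg1* from -0.97 to -0.32. The values nearest to 0 were those without WT replicate 2, and *Prkg1* changed by -0.97 without WT replicate 1.

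In smooth muscle, errors were smaller than in pericytes for all 7 genes tested in both (SE 0.08 to 0.15 against 0.26 to 0.33). *Prkg1* had 1337 and 1498 CPM in WT mice against 1200 and 1302 CPM in *Tubb3*-/- mice (log2 fold change -0.20, SE 0.09, edgeR adjusted p = 0.393). *Gucy1a2* was -0.21 (SE 0.08, adjusted p = 0.327) and *Npr3* 0.34 (SE 0.15, adjusted p = 0.363), and for these 3 genes the mice of the genotypes did not overlap. *Pde3a* differed least, with 577 and 543 against 563 and 562 CPM. A gate on *Hpse2* within smooth muscle showed a larger difference for *Gucy1a2*, with 81.2 and 133 CPM in WT mice against 46.2 and 60.0 CPM in *Tubb3*-/- mice (-0.99, SE 0.23, adjusted p = 0.0621), whereas cells with *Actc1* had 38.6 and 26.5 against 25.3 and 32.8 CPM. In the *Hpse2* gate 0 of 7 genes tested were called (0.566% of all genes), and 3 had an unadjusted p under 0.05, where 1226 of 10078 genes did. In the *Actc1* gate these counts were 0 of 8 (0.0%) and 2, where 823 of 10990 genes had such a p. *Prkg1* had 1759, 2433, 1323 and 1532 CPM in *Hpse2* cells, and *Npr1* was at 1.51 to 5.08 CPM there against 21.2 to 27.6 CPM in *Actc1* cells. Smooth muscle cells gated by *Mylk4* had 80.9, 74.7, 74.4 and 88.8 CPM of *Npr1*, within the range of endothelial cells (74.3 to 104 CPM). The *Mylk4* gate held 155 cells, with 7 in WT replicate 2, too few for a test.

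The fitted changes of *Pde3a* and *Npr3* were negative in endothelial cells and positive in fibroblasts of *Tubb3*-/- mice, and none of the 4 passed the test. *Pde3a* in endothelial cells, with 690 and 930 CPM in WT mice against 458 and 575 CPM in *Tubb3*-/- mice, changed by -0.63 on the log2 scale (SE 0.16, edgeR adjusted p = 0.171). In fibroblasts it had 48.5 and 44.9 against 69.2 and 61.2 CPM, a log2 fold change of 0.48 (SE 0.12, adjusted p = 0.163). The genotypes did not overlap in either lineage. The summed level of 5 smooth muscle markers, all detected, was ordered in the same way, with 333 and 314 against 219 and 217 CPM in endothelial cells and 474 and 481 against 904 and 671 CPM in fibroblasts, and its part in the *Pde3a* values was not tested. A model over both lineages gave a difference of the fold changes of -1.07 (SE 0.24, unadjusted p = 0.00035), and its adjusted p of 0.139 did not pass the test. In this test edgeR called 0 of the 9 genes and 0.0% of all genes. Unadjusted p was under 0.05 for 2 of the 9, and for 1263 of all 17632 genes tested. *Npr3* had 209 and 479 against 139 and 248 CPM in endothelial cells, which overlap (-0.82, SE 0.40, adjusted p = 0.402, and -0.0935 without WT replicate 2), and 42.9 and 31.7 against 60.1 and 58.5 CPM in fibroblasts, which do not (0.66, SE 0.18, adjusted p = 0.180). Its difference of fold changes was -1.44 (SE 0.39, adjusted p = 0.227).

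**Figure D3:**
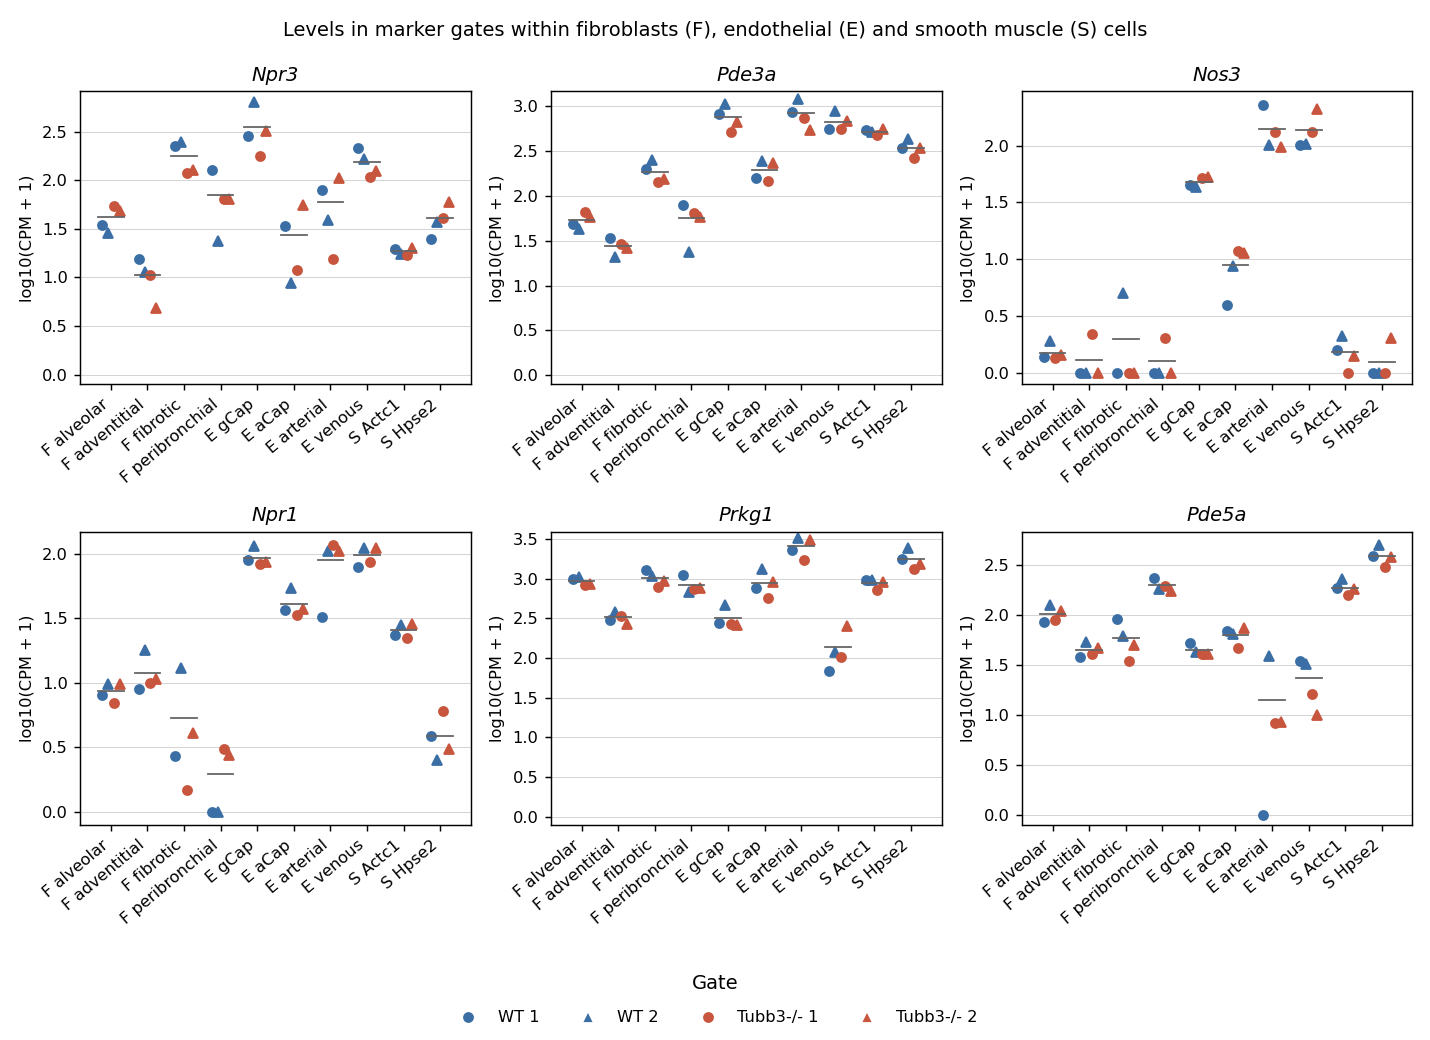
Level as log10(CPM + 1) of 6 genes in marker gates within fibroblasts, endothelial and smooth muscle cells, with 1 point per mouse, colour for the genotype and a line for the mean. *Nos3* was lower in aerocytes than in the other endothelial gates shown, and *Npr3* and *Pde3a* were lower in fibrotic fibroblasts and higher in alveolar fibroblasts of both *Tubb3*-/- mice.

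The fibroblast gate held several kinds of cells, and the order of the genotypes was not the same in them. Alveolar fibroblasts (*Npnt*) had 33.4 and 27.4 CPM of *Npr3* in WT mice against 53.7 and 47.6 CPM in *Tubb3*-/- mice (log2 fold change 0.73, SE 0.16, edgeR adjusted p = 0.107). Fibrotic fibroblasts (*Cthrc1*) had 225 and 244 CPM in WT mice against 119 and 128 CPM in *Tubb3*-/- mice, from 28 and 14 cells against 87 and 53 cells, which were too few in 1 WT mouse for a test. *Pde3a* followed the same pattern, with 46.9 and 42.0 against 64.6 and 57.7 CPM in alveolar fibroblasts (0.45, SE 0.13, adjusted p = 0.172) and 197 and 248 against 142 and 152 CPM in fibrotic fibroblasts. Both genes were higher in fibrotic than in alveolar fibroblasts in every mouse. In alveolar fibroblasts 0 of 8 genes tested were called (0.261% of all genes), and 2 had an unadjusted p under 0.05, where 2559 of 14153 genes did. In adventitial fibroblasts (*Pi16*) these counts were 0 of 8 (0.00998%) and 1, where 877 of 10020 genes had such a p. The part of the larger number of *Cthrc1* cells in the fibroblast values was not tested.

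In general capillary cells, *Npr3* had 285 and 644 CPM in WT mice against 175 and 319 CPM in *Tubb3*-/- mice (-0.90, edgeR adjusted p = 0.323), and *Pde3a* had 807 and 1063 against 510 and 659 CPM (-0.66, adjusted p = 0.134). *Pde3a* did not overlap between the genotypes there, and *Npr3* did. Aerocytes held less *Pde3a* (158, 243, 144 and 230 CPM) than general capillary cells of the same mouse. In general capillary cells 0 of 8 genes tested were called (0.0254% of all genes), and 3 had an unadjusted p under 0.05, where 1561 of 11797 genes did. In aerocytes these counts were 0 of 6 (0.0329%) and 1, where 372 of 6080 genes had such a p. *Prkg1* was lower in both *Tubb3*-/- mice in the sum of all endothelial cells (-0.50, SE 0.15, edgeR adjusted p = 0.222, and -0.24 without WT replicate 2). General capillary cells had 272, 467, 266 and 257 CPM of it, without overlap of the genotypes. Arterial cells had 2332, 3219, 1733 and 3070 CPM, aerocytes 760, 1330, 565 and 920 CPM and venous cells 67.1, 120, 102 and 253 CPM. In these last gates the genotypes overlapped. *Nos3* (0.17, SE 0.12, adjusted p = 0.582) and *Npr1* (-0.19, SE 0.14, adjusted p = 0.587) overlapped between the genotypes in endothelial cells.

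**Figure D4:**
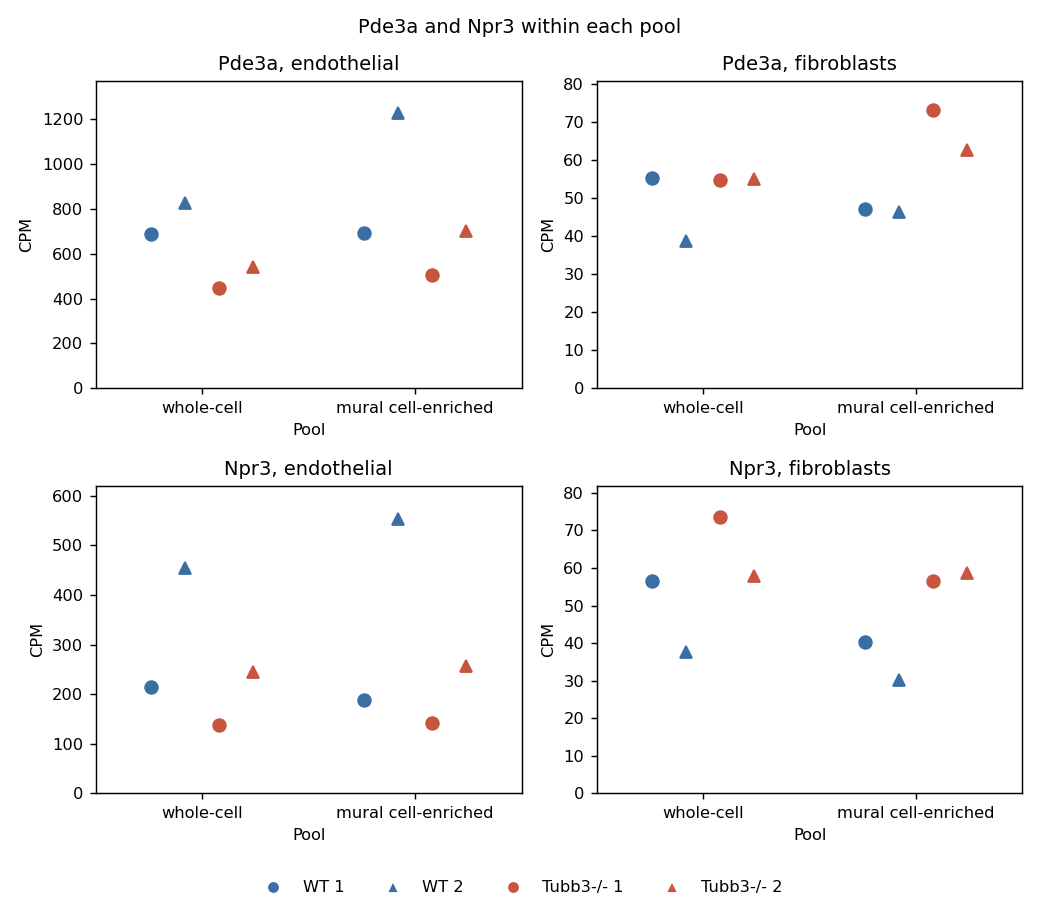
Level in CPM of *Pde3a* and *Npr3* in endothelial cells and fibroblasts of the whole-cell and the mural cell-enriched pool, with 1 point per mouse and colour for the genotype. *Pde3a* of endothelial cells was lower in both *Tubb3*-/- mice of the whole-cell pool and overlapped in the enriched pool, and *Npr3* of fibroblasts was higher in both *Tubb3*-/- mice of each pool.

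The 2 pools hold cells of the same mice and were read separately. *Pde3a* of endothelial cells had 689, 827, 445 and 540 CPM in the whole-cell pool and 693, 1228, 507 and 702 CPM in the mural cell-enriched pool, where the genotypes overlapped. *Pde3a* of fibroblasts had 55.1, 38.6, 54.7 and 55.0 CPM in the whole-cell pool, with an overlap, and 47.2, 46.4, 73.0 and 62.6 CPM in the enriched pool, without one. *Npr3* of fibroblasts had 56.5, 37.6, 73.6 and 57.8 CPM in the whole-cell pool and 40.3, 30.3, 56.5 and 58.7 CPM in the enriched pool, and was higher in both *Tubb3*-/- mice of each. *Prkg1* of immune cells, at 15.3 and 19.9 against 28.9 and 31.3 CPM over both pools (0.79, SE 0.14, edgeR adjusted p = 0.377), had 14.9, 17.1, 27.7 and 31.3 CPM in the whole-cell pool but 34.4, 58.5, 51.8 and 31.0 CPM in the enriched pool, from which immune cells had been depleted.

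Other genes of nitric oxide, cGMP and calcium handling in contractile cells were tested from a list of 36 names, of which 35 were in the files. Of 25 tested in smooth muscle, 2 passed the edgeR test (0.937% of all genes did), both higher in *Tubb3*-/- mice. *Pde10a*, which hydrolyses cAMP and cGMP, had 48.4 and 46.9 CPM in WT mice against 95.7 and 86.8 CPM in *Tubb3*-/- mice (log2 fold change 0.92, SE 0.10, adjusted p = 0.0208). *Pde1a*, a phosphodiesterase activated by calcium and calmodulin, had 116 and 110 CPM against 173 and 172 CPM (0.59, SE 0.09, adjusted p = 0.0381). The mice of the genotypes did not overlap for either gene. In the whole-cell pool alone the changes were 1.35 and 0.76 with adjusted p of 0.382 and 0.482, and without WT replicate 2 the adjusted p of *Pde1a* was 0.0924. In the *Actc1* gate edgeR called 0 of 21 listed genes (0.0% of all genes), and in the *Hpse2* gate 0 of 20 (0.566%). The *Hpse2* gate held 98 and 77 of 1286 and 697 smooth muscle cells in WT mice. In *Tubb3*-/- mice it held 142 and 147 of 1221 and 1067, and its part in the *Pde10a* and *Pde1a* values was not tested. In the other lineages edgeR called 0 of 10 genes in pericytes (0.0% of all genes), 0 of 28 in fibroblasts (0.0%) and 0 of 24 in endothelial cells (0.229%). It also called 0 of 20 in epithelial cells (0.0%) and 0 of 27 in immune cells (0.0%). Unadjusted p was under 0.05 for 2, 8, 10, 7 and 6 of them, where 5.94%, 19.6%, 15%, 6.3% and 8.62% of all genes were. DESeq2 called 0, 3, 1, 0 and 1 of them, and 0.0182%, 5.19%, 1.66%, 0.149% and 0.888% of all genes with an adjusted p. In smooth muscle 7 of the 25 had such an unadjusted p (13.8% of all genes), and DESeq2 called 2 (1.87%).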

How the data were processed

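Lung cells of 2 WT and 2 *Tubb3*-/- mice were read in 8 single-cell RNA-seq libraries from 2 pools. The values are counts of UMIs per gene and cell, which the authors deposited as Cell Ranger 7.1.0 wrote them for mm10 with an added *Cre* gene, as whole numbers without normalization or correction for background RNA. *Cre* reached at most 0.0291 CPM in any library. Columns of tag counts were set aside, and the tag libraries were not used here. The mouse of each library came from its file's name, matched to the list of tags in the extraction protocol, and in 8 of 8 libraries the most frequent tag was the one listed.

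Of 32121 cells deposited, 30018 had 200 to 7500 genes and at most 15% mitochondrial UMIs and were not marked as doublets by Scrublet (scanpy 1.11.5), which marked 1.19% of the whole-cell and 4.03% of the mural cell-enriched pool. Genes needed to be found in 3 cells. No cell barcode was shared within a pool (0), and 59 were shared between the pools. Median UMIs per cell were 9186 to 16299 by library.

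UMIs were summed per mouse and lineage over both pools and given as CPM. The test was the quasi-likelihood fit of edgeR 4.0.16 under R 4.3.3 (low counts dropped by filterByExpr, TMM scaling, Benjamini-Hochberg adjustment over all genes tested, threshold 0.05), after the fits were tested on simulated data. The genotype was the only term within a lineage, and lineages were compared with the mouse as a block. Gates within a lineage were tested where every mouse had at least 20 cells. Shares of cells with a UMI were taken after thinning to 2000 UMIs, which left out 136 WT and 146 *Tubb3*-/- cells. Alternatives were DESeq2 1.42.0, no filter, each mouse left out, the replicate number as a block, each pool alone, doublets kept, a 10% mitochondrial limit, stricter gates (2 UMIs, 6 of *Myh11*), and, added after the data were seen, a wider pericyte gate and sums without haemoglobin genes. Replicate 1 was male and replicate 2 female in each genotype, and p-values measure the spread between these mice.

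The 9 genes, the other pathway genes and all gates were chosen with earlier results of these data known. Named genes were the 9, other pathway genes called in a lineage (at most 6 each), the 3 genes most correlated with each of the 9 among those whose mean was 10 CPM or more, the gate genes, *Tubb3* and *Cre*. Of the 36 listed names *Irag1* was absent, and *Mrvi1* is its older name. Coordinates are from GENCODE vM21 on GRCm38, the sequence of mm10, and motif windows from RefSeq. Whether counting used strand is not given in the sources used here. *Gucy1a1* and *Pde3a* overlap other genes on the same strand, and *Prkg1*, *Nos3*, *Pde5a*, *Npr1* and *Npr3* overlap other genes, which leaves some doubt on their counts.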

Additional observations from a re-analysis of the deposited data

Results flagged for a closer look

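The fitted change of *Pde3a* was negative in endothelial cells (log2 fold change -0.63) and positive in fibroblasts (0.48), with every *Tubb3*-/- mouse below every WT mouse in the one and above in the other. The difference of -1.07 (SE 0.24) had an adjusted p of 0.139 in edgeR's quasi-likelihood test of the interaction. In epithelial cells *Pde3a* was higher in both *Tubb3*-/- mice (0.57), 1.20 above the endothelial change on the log2 scale, and this difference was not tested. The epithelial change rested on 19 to 37 UMIs per mouse and was not seen in both pools. Epithelial *Pde3a* had 5.83, 5.43, 5.27 and 3.64 CPM in the whole-cell pool, and 8.96, 12.3, 20.9 and 16.6 CPM in the enriched pool.

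*Prkg1* was higher in immune cells of both *Tubb3*-/- mice (0.79) and lower in both in pericytes (-0.68), smooth muscle (-0.20), fibroblasts (-0.23) and endothelial cells (-0.50). The differences of 1.47, 0.99, 1.02 and 1.28 were not tested. The immune change was not seen in both pools. Immune *Prkg1* had 14.9, 17.1, 27.7 and 31.3 CPM in the whole-cell pool. In the enriched pool, with 200 of the 5147 immune cells, it had 34.4, 58.5, 51.8 and 31.0 CPM. Without thinning, shares of immune cells with a *Prkg1* UMI overlapped between the genotypes (8.1%, 10.4%, 9.8% and 9.2%). After thinning the shares were higher in both *Tubb3*-/- mice (2.2%, 2.9%, 3.2% and 3.1%). With 2 mice per genotype, 36.5% to 49.4% of all genes of a lineage had genotypes that did not overlap.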

How the results depend on the processing

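The lineage differences of the 9 genes kept their direction and their side of the threshold in 319 of 322 values under the alternatives, and were not refitted with a mouse left out. The exceptions were *Npr1* between pericytes and smooth muscle in each pool alone (-0.98 in the mural cell-enriched pool) and *Npr3* between endothelial cells and pericytes in the whole-cell pool alone (1.06). The cause was not tested here or for the other values below. Numbers of genes that differed between lineages were lower in the whole-cell pool alone, with 3047 in place of 5606 (endothelial cells against pericytes), 6837 in place of 10709 (endothelial cells against smooth muscle), 2598 in place of 4631 (pericytes against fibroblasts), 2292 in place of 4513 (pericytes against smooth muscle) and 4620 in place of 8169 (smooth muscle against fibroblasts), from fits that tested other sets of genes. Between endothelial cells and fibroblasts the enriched pool gave 7074 in place of 10780, and with the wider pericyte gate 8490 differed between endothelial cells and pericytes. Without thinning, shares of cells with a UMI were 26.3% (*Nos3*), 45.1% (*Npr1*) and 56.9% (*Npr3*) of endothelial cells, in place of 9.53%, 17.2% and 33.5%, and 74.5% (*Gucy1a2*), 90.4% (*Pde3a*) and 93.9% (*Pde5a*) of pericytes, in place of 46.8%, 74.0% and 85.6%, since deeper cells hold more UMIs.

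The genotype calls depended on the fit. Of the 9 genes, DESeq2 called 1 each in endothelial cells, fibroblasts and immune cells (1.66%, 5.19% and 0.888% of all genes with an adjusted p). With no filter on low counts edgeR called 2 in endothelial cells, *Pde3a* (-0.59, adjusted p = 0.00605) and *Prkg1* (-0.46, adjusted p = 0.0368). This fit called 742 of all 21693 genes. With a mouse left out, a genotype rests on a single mouse, and the changes are given here without calls. Without *Tubb3*-/- replicate 2, *Npr3* changed by -1.27 and *Pde3a* by -0.78 in endothelial cells. *Npr3* ranged there from -1.29 to -0.0935 over the mice left out. Without WT replicate 1, *Npr3* changed by 0.96 and *Pde3a* by 0.60 in fibroblasts. For the interaction of endothelial cells and fibroblasts, stricter gates called 1 of the 9 (*Pde3a*, -1.10, adjusted p = 0.0347), and 44 of all 18211 genes. With no filter this test called 2, *Pde3a* (-1.05) and *Npr3* (-1.42), and 319 of all 25760 genes. No filter also called 1 for endothelial cells against smooth muscle, and 142 of all 25760 genes.

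The replicate numbers stand for no stated litter or batch. Deviations of same-numbered mice from their genotype's mean had correlations of 0.01 in pericytes, 0.32 in smooth muscle, 0.48 in fibroblasts, 0.10 in endothelial, 0.17 in epithelial and 0.23 in immune cells, and replicate 1 was male and replicate 2 female in both genotypes. With the replicate block edgeR called 1 of the 9 genes in smooth muscle (*Prkg1*, -0.20, adjusted p = 0.0311), 1 in fibroblasts (*Pde3a*, 0.48, adjusted p = 0.0297) and 2 in endothelial cells (*Pde3a*, -0.62, adjusted p = 0.0224, and *Npr3*, -0.75, adjusted p = 0.036). The block moved the number of all genes called to 1373 in smooth muscle, 971 in fibroblasts, 333 in endothelial cells, 3 in epithelial and 29 in immune cells.

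Over all genes, 133 were called in smooth muscle, 31 in endothelial cells and 0 in the other 4 lineages. DESeq2 called 250 in smooth muscle, 778 in fibroblasts, 225 in endothelial cells, 18 in epithelial cells, 87 in immune cells and 1 in pericytes. With no filter edgeR called 1042, 206, 742, 0, 58 and 66 in this order. In the whole-cell pool alone the counts were 3 in smooth muscle and 2 each in fibroblasts and endothelial cells, and in the enriched pool alone 12 in endothelial and 1 in epithelial cells. Stricter gates gave 67 in smooth muscle, 145 in endothelial and 3 in immune cells, a 10% mitochondrial limit 17 in endothelial cells, and sums without haemoglobin genes 55 in endothelial cells. Leaving out a mouse gave 160 to 340 in smooth muscle, 0 to 987 in fibroblasts, 18 to 339 in endothelial cells, 0 to 67 in epithelial cells, 0 to 114 in immune cells and 0 to 151 in pericytes. Interactions gave 0 genes for endothelial cells against fibroblasts (44 with stricter gates, 2 with doublets kept, 2 without haemoglobin genes, 319 with no filter), 4 against pericytes (0 with stricter gates, 1 with wider pericytes, 117 with no filter) and 0 against smooth muscle (142 with no filter). They gave 5 for pericytes against fibroblasts (0 with stricter gates, 0 with wider pericytes, 85 with no filter), 3 for pericytes against smooth muscle (0, 0 and 84 likewise) and 1 for smooth muscle against fibroblasts (9 with stricter gates, 5 without haemoglobin genes, 107 with no filter).

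Genotype changes were followed for the 9 genes in lineages where they averaged at least 10 CPM, and changed sign in 23 values under the alternatives. Lower levels were not counted. In the enriched pool alone these were *Gucy1b1* of endothelial cells (0.43), *Gucy1a1* (-0.0503) and *Pde5a* (-0.0087) of fibroblasts, *Prkg1* of immune cells (-0.24) and *Npr3* of pericytes (0.0621). In the whole-cell pool alone these were *Gucy1b1* of pericytes (0.10) and *Npr1* (0.24) and *Pde5a* (0.15) of smooth muscle, and with no filter *Pde3a* of smooth muscle (0.005). With a mouse left out, the ranges crossed 0 for *Gucy1a1* (-0.17 to 0.29) and *Pde5a* (-0.18 to 0.27) of fibroblasts, *Gucy1b1* (-0.29 to 0.0859) and *Npr1* (-0.36 to 0.0409) of endothelial cells, *Prkg1* of epithelial cells (-0.87 to 0.22), *Pde3a* of smooth muscle (-0.0919 to 0.0731), and *Gucy1a1* (-0.73 to 0.0474), *Gucy1b1* (-0.49 to 0.45) and *Pde3a* (-0.28 to 0.23) of pericytes. *Nos3* and *Npr1* had too few UMIs in pericytes to be tested there.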
